A study of Mus musculus with 6 samples.

Results

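The 9 genes described here encode the 3 CD3 chains of the T cell receptor complex (Cd3d, Cd3e and Cd3g), the zeta chain of that complex (Cd247), the T cell co-receptors (Cd4, Cd8a and Cd8b1) and the scavenger receptors CD5 and CD6. They were found by exact gene name among 27763 gene rows of the deposited table, and each name matched a single row. Poly(A) RNA was sequenced from splenic natural killer (NK) cells that the labels call DN NK, with 3 libraries, and cNK, with 3 libraries. Both groups are labelled as wild type C57BL/6 at 6 weeks of age, and the labels name no transgene, allele, treatment or agent in either. The labels spell out neither group name and give no sorting gate, so whether CD3 or a co-receptor served to separate the cells is not known here, and the study title only places the work around immature NK cells of the spleen and T-bet.

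CD3 delta, gamma and epsilon carry the signal of the T cell receptor inward. Epsilon pairs with delta and with gamma, CD247 forms a zeta dimer, and all 4 chains bear immunoreceptor tyrosine-based activation motifs (ITAMs) that bind ZAP-70 once phosphorylated by LCK. Outside T cells CD247 is best known from NK cells, where it serves as a signalling adaptor of activating receptors such as human NKp46 and CD16. CD4 and CD8 bring LCK to the receptor, while CD5 and CD6 tune the strength of its signal.

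The estimated counts per library summed to between 79798234 and 81437724 in DN NK and between 84270567 and 89526647 in cNK. They are not read counts. A read pair was worth about 3.73 of them, which puts the depth near 21.4 to 21.8 M pairs in DN NK and 22.6 to 24.0 M pairs in cNK. The NK antigen gene Klrb1c stood at 127.5 to 148 FPKM in DN NK and at 289.6 to 319 FPKM in cNK. FPKM scales fragments to transcript length and depth, so levels of different genes are compared below on that scale only. Whether each library is a mouse of its own is not labelled, and p-values then reflect only how far these libraries spread, which may be technical.

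Within the receptor complex the chains moved in opposite directions. Cd3d and Cd3g were several-fold higher in DN NK than in cNK, Cd247 was lower, and Cd3e, though also higher in DN NK, stayed below 1 FPKM in all 6 libraries. The genes Cd4, Cd5, Cd6 and Cd8a were higher in DN NK from cNK values near 0. Cd8b1 was at or near 0 in both groups.

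In GRCm38, the build named in the submitters' processing notes, the CD3 genes form a cluster on chromosome 9. In the deposited whole-gene spans Cd3g (ENSMUSG00000002033) runs from 44969572 to 44980431 on the minus strand, Cd3d (ENSMUSG00000032094) from 44981786 to 44987339 on the plus strand and Cd3e (ENSMUSG00000032093) from 44998740 to 45009627 on the minus strand. Cd3g and Cd3d point away from each other across 1.36 kb, and 11.4 kb separate Cd3d from Cd3e. Cd247 (ENSMUSG00000005763) spans 165788681 to 165877277 on the plus strand of chromosome 1. The promoter windows of the 4 chains are shown because their transcripts changed unequally. They are RefSeq sequences of build GRCm38.p6 from 250 bases before to 50 after the annotated start, 5′ to 3′ on the strand of the gene, at chr9:44980382-44980681 (minus), chr9:44981536-44981835 (plus), chr9:45009562-45009861 (minus) and chr1:165788431-165788730 (plus). Capitals mark each match, on either strand, to 1 of 6 short motifs named E-box, T-box, TCF/LEF, GATA, ETS and RUNX and spelled out after the sequences.
Cd3g: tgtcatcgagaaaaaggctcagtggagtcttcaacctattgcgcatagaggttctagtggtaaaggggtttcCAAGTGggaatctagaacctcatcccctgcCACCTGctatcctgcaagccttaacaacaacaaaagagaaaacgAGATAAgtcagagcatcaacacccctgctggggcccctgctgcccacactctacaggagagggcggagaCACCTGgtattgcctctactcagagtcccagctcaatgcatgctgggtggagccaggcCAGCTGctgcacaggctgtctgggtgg
Cd3d: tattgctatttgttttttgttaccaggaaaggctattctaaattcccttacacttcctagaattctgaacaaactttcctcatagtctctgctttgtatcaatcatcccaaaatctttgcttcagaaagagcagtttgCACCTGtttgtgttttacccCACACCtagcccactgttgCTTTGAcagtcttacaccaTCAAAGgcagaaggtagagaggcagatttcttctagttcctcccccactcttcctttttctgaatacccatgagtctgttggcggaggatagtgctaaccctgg
Cd3e: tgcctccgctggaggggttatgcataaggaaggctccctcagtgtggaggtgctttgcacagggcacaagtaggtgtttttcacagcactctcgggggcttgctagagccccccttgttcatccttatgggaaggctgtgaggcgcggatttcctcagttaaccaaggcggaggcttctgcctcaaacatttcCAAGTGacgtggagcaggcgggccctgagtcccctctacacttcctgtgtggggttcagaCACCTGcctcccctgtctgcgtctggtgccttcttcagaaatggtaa
Cd247: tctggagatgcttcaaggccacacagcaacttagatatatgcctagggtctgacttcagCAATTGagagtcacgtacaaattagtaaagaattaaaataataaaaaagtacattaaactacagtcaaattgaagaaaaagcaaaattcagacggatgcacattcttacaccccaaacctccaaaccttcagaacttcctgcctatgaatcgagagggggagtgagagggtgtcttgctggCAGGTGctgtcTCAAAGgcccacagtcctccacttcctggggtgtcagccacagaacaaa
The Cd3d window was the only one of the 4 with a T-box match, which begins 92 bases before the start, and it held TCF/LEF matches that begin 73 and 54 bases before it. The T-box motif searched, GGTGTG, is in 19.0% of 32544 mouse promoter windows of this length. The TCF/LEF motif, CTTTGA, is in 16.0% of them. The Cd3g window held the only GATA match of the 4, to AGATAA, which is in 11.2% of windows. E-box letters, CANNTG, matched 4 times for Cd3g, 1 time for Cd3d and 2 times each for Cd3e and Cd247, and 72.3% of all windows hold at least 1 match. Cd247 also had a TCF/LEF match next to its start. The ETS motif CCGGAA, in 15.0% of all windows, had no match in these. The RUNX motif TGTGGT, in 16.7% of all windows, had none either. No matches overlapped, and a match is a description of letters only.

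Cd3d, the CD3 delta gene, had 39.4, 37.7 and 38.5 FPKM in the DN NK libraries, against 4.53, 4.18 and 4.90 FPKM in the cNK libraries. The groups lie far apart and vary little. The mean was 38.5 ± 0.873 FPKM in DN NK and 4.54 ± 0.358 FPKM in cNK (SD, n = 3 each). By edgeR's quasi-likelihood test with Benjamini-Hochberg adjustment over all rows tested, Cd3d was 8.84-fold higher in DN NK (log2 fold change 3.14, SE 0.075, adjusted p = 5.26e-08). Of the 9 genes, 4 reached the filter of 1 FPKM in at least 3 libraries and were tested in this fit, where 61.7% of all 11690 rows passed an adjusted p of 0.05, 30.8% higher and 30.9% lower in DN NK. Cd4 reached that filter only through its DN NK values. A bulk level cannot tell more transcripts per cell from more cells that carry them.

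Cd3g, the CD3 gamma gene, stood at 16.6, 17.2 and 18.1 FPKM in DN NK, against 3.45, 3.48 and 3.24 FPKM in cNK. Again no DN NK library came near a cNK library. The difference was 5.32-fold (log2 fold change 2.41, SE 0.062, adjusted p = 7.60e-08 by edgeR). The ratio of Cd3d to Cd3g within a library was 2.12 to 2.37 in DN NK and 1.20 to 1.51 in cNK, so the pair differed by unequal factors.

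Cd3e, the gene of the epsilon chain that delta and gamma both pair with, had 0.839, 0.727 and 0.971 FPKM in DN NK. In cNK it had 0.00899, 0.0465 and 0.00999 FPKM. All DN NK libraries lie above all cNK libraries, yet the DN NK values sit far under those of Cd3d and Cd3g in the same libraries. In DN NK the level of Cd3d was 39.6 to 51.8 times that of Cd3e, and the level of Cd3g 18.7 to 23.7 times that of Cd3e. Even in cNK, where Cd3e rests on about 8 read pairs over the group against about 261 in DN NK, Cd3d exceeded it 89.9 to 504.3-fold. Cd3e lay below the filter, and in the fit without a filter, where 15.3% of 27763 rows were called higher in DN NK, Cd3e had a log2 fold change of 5.14 with an SE of 0.55 (edgeR, adjusted p = 0.000166). Without cNK replicate 2, which holds most of the cNK counts, this value was 6.39. The annotated antisense gene Gm48719 shares exon sequence with Cd3e, and the library kit does not mark strand, so reads of the pair cannot be told apart. Gm48719 itself stayed at or below 0.316 FPKM in every library, which is not small beside the Cd3e values in DN NK. Under its deposited name AC122305.3 it averaged 0.160 ± 0.158 FPKM in DN NK and 0 in cNK. It did not pass without a filter (adjusted p = 0.133 by edgeR).

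Cd247, the zeta chain gene, went the other way. It had 15.0, 15.1 and 16.1 FPKM in DN NK, against 34.7, 36.8 and 34.7 FPKM in cNK. Every DN NK library lies below every cNK library. Its level fell to 15.4 ± 0.653 FPKM in DN NK, against 35.4 ± 1.19 FPKM in cNK (SD, n = 3 each); on the log2 scale the fold change was -1.14 with an SE of 0.046 (edgeR, adjusted p = 4.43e-07). Exons of Gm16565 on the same strand and of Pou2f1 on the opposite strand overlap annotated exons of Cd247, so some of its reads are uncertain. These neighbours reached no more than 5.19 and 5.57 FPKM in any library. In DN NK they averaged 4.73 ± 0.419 and 5.08 ± 0.441 FPKM, which is not small beside Cd247 there. In cNK they averaged 3.925 ± 0.335 and 3.745 ± 0.0705 FPKM.

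**Figure D1:**
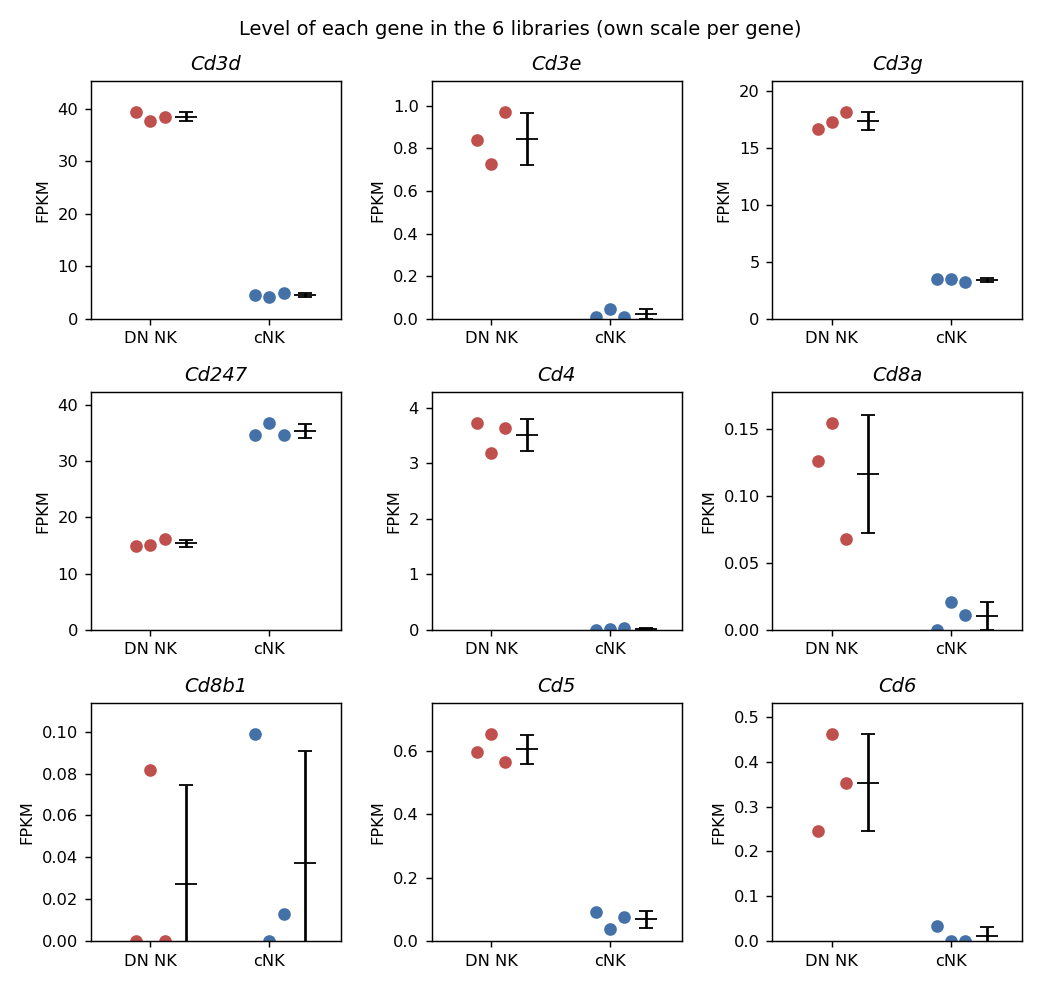
Level of each of the 9 genes in FPKM, with 1 point per library, DN NK left of cNK; the bar beside the points is the mean ± SD of 3 libraries, drawn from 0 upward where it would pass below 0. Each panel has its own axis: Cd3d reaches 39.4 FPKM and Cd3e 0.971 FPKM, Cd247 alone is lower in DN NK without overlap, and the groups overlap only for Cd8b1.

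The makeup of the 4 signalling chains therefore differed between the groups. Their summed level was 72.1 ± 1.52 FPKM in DN NK and 43.3 ± 0.992 FPKM in cNK (SD, n = 3 each). Cd247 made up 21.3% ± 0.536 of that sum in DN NK and 81.6% ± 0.894 in cNK. Cd3d made up 53.4% ± 1.34 in DN NK and 10.5% ± 1.02 in cNK, and Cd3g 24.0% ± 0.781 in DN NK and 7.83% ± 0.266 in cNK. Cd3e never exceeded 1.32% of the sum in DN NK or 0.105% in cNK. These are shares of transcripts, given without a test because they combine the genes under study.

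**Figure D2:**
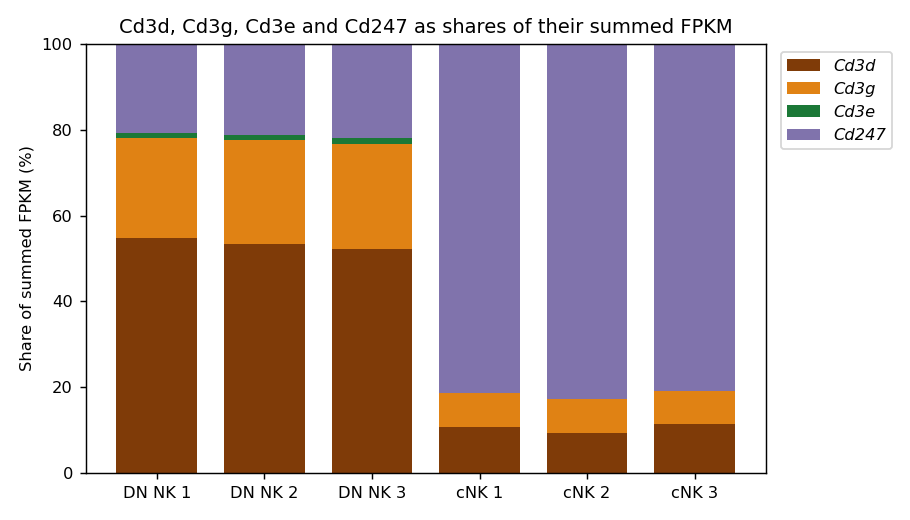
Share of Cd3d, Cd3g, Cd3e and Cd247 in their summed FPKM, in percent, for each DN NK and cNK library. Cd247 takes 80.99 to 82.7% of the sum in cNK libraries and 20.8 to 21.9% in DN NK libraries, while the Cd3e band stays at or below 1.32%.

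Among the co-receptors Cd4 was the only gene above 1 FPKM. Cd4 (ENSMUSG00000023274; chromosome 6, 124864692 to 124888221, minus strand) had 3.72, 3.18 and 3.64 FPKM in DN NK, against 0, 0.00935 and 0.0388 FPKM in cNK. The DN NK libraries are alike and the cNK libraries hold next to nothing, about 1066 read pairs over the DN NK group against about 5 over the cNK group. Cd4 differed by 7.76 on the log2 scale with an SE of 0.62 (edgeR, adjusted p = 0.000152), and the ratio of read pairs per depth was 229 with an exact 95% binomial interval of 97.9 to 707 that covers counting error only. Its size rests on those few cNK pairs, and was 9.45 without cNK replicate 3 and 7.17 without cNK replicate 1.

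Cd8a (ENSMUSG00000053977; chromosome 6, 71373427 to 71379173, plus strand), whose product forms CD8 alone or with the beta chain, had 0.126, 0.154 and 0.0678 FPKM in DN NK, against 0, 0.0208 and 0.0108 FPKM in cNK. All values are low, and those of DN NK are all above those of cNK. About 33 read pairs in DN NK stood against about 3 in cNK, a ratio of 11.8 (exact 95% binomial interval 3.71 to 60.3), with adjusted p = 0.00877 by edgeR without a filter. Cd8a missed the threshold without DN NK replicate 2 (adjusted p = 0.0631), and its log2 fold change of 3.39 became 4.34 without cNK replicate 2. Its neighbour Cd8b1 (ENSMUSG00000053044), 35.9 kb away from 71322788 to 71337494 on the same strand, had 0, 0.0816 and 0 FPKM in DN NK, against 0.0988, 0 and 0.0127 FPKM in cNK. The groups overlap, and about 3 read pairs in DN NK against about 5 in cNK show no difference that this depth could resolve (ratio 0.645, exact 95% binomial interval 0.1002 to 3.32; adjusted p = 0.902 by edgeR).

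Cd5 and Cd6, both on the minus strand, are 50.4 kb apart. Cd5 (ENSMUSG00000024669; chromosome 19, 10718143 to 10738974) had 0.599, 0.654 and 0.565 FPKM in DN NK, against 0.0909, 0.0368 and 0.0767 FPKM in cNK. The DN NK values lie close together and well above the cNK values. Cd5 had a log2 fold change of 3.08 with an SE of 0.38 (edgeR without a filter, adjusted p = 3.89e-05). Cd6 (ENSMUSG00000024670; chromosome 19, 10789341 to 10830058) had 0.245, 0.462 and 0.354 FPKM in DN NK, against 0.0334, 0 and 0 FPKM in cNK. The groups are apart, but cNK held about 3 read pairs in all against about 92 in DN NK, a ratio of 33.0 (exact 95% binomial interval 10.9 to 163; adjusted p = 0.0178 by edgeR without a filter). With the replicate numbers of the titles as a block, Cd6 missed the threshold at adjusted p = 0.0501. Without cNK replicate 1 Cd6 is at 0 in the remaining cNK libraries, and its fitted log2 value of 9.87 then depends on the prior count and is no measure of size.

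In the fit without a filter 7 of the 9 genes were higher in DN NK, 1 was lower and 1 did not pass, where 31.3% of all rows were called, 15.3% higher and 16.0% lower. In FPKM the groups lay apart for 8 of the 9 genes, 7 of them with DN NK above, as for 42.4% of all rows, 21.8% with DN NK above. Of the rows past the filter 70.3% lay apart, 31.0% with DN NK above. By level the genes ran, in DN NK, Cd3d, Cd3g, Cd247, Cd4, Cd3e, Cd5, Cd6, Cd8a and Cd8b1. Only the last neighbours, Cd8a and Cd8b1, overlapped between libraries, although the lowest Cd3g value of 16.6 FPKM came close to the highest Cd247 value of 16.1 FPKM. In cNK the order was Cd247, Cd3d and Cd3g without overlap, followed by the other 6 genes, which lay between 0 and 0.0988 FPKM with overlapping ranges.

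**Figure D3:**
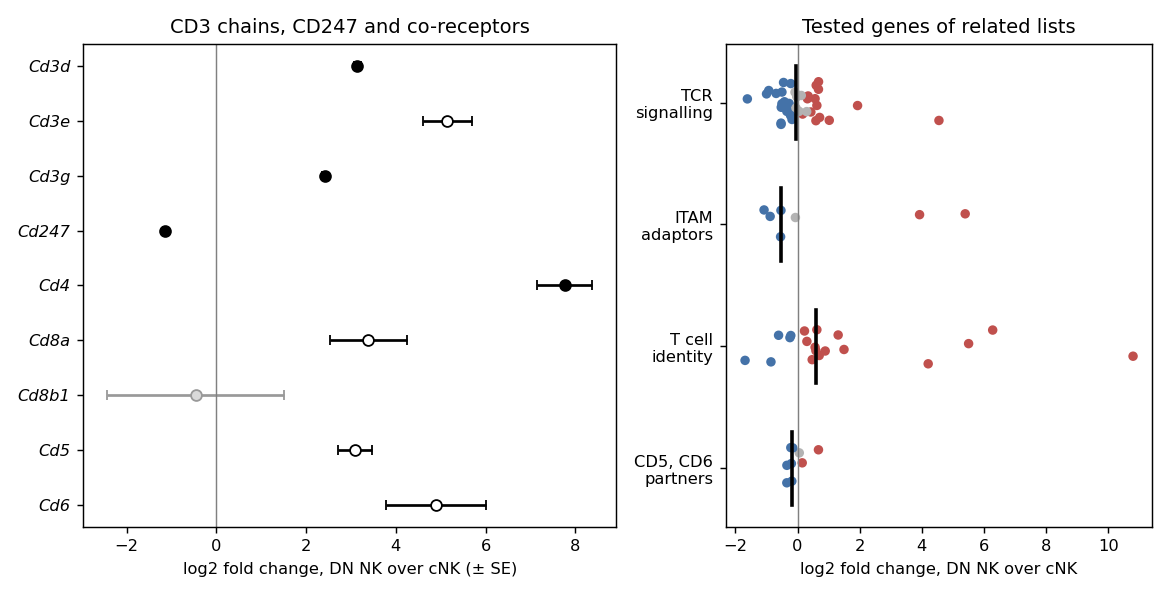
Left, log2 fold change of each of the 9 genes, DN NK over cNK, with its standard error; filled points were tested with the filter, open points without it, and the grey point did not pass. Right, each tested gene of 4 related lists, coloured red where higher, blue where lower and grey where it did not pass, with a black line at the list median; Cd4 lies at 7.76 and Cd247 at -1.14, and the far right point of the T cell identity list, Tcrg-C2, is at 0 in all cNK libraries, so that its fitted size is no measure.

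The enzymes and adaptors that act downstream of CD3 did not share a direction. Of 40 listed T cell receptor signalling genes 37 were tested, of which 14 were higher in DN NK, 17 were lower and 6 did not pass, where 30.8% of all rows were higher and 30.9% lower, with a median log2 fold change of -0.050 against -0.016 over all rows tested. Trat1, which encodes an adaptor bound to the receptor complex, passed the filter only through DN NK and rose to 10.6 ± 0.682 FPKM in DN NK, against 0.462 ± 0.277 FPKM in cNK (log2 fold change 4.55, SE 0.35, adjusted p = 2.39e-05 by edgeR; 5.15 without cNK replicate 2). Cd226 and Dgka, the genes of an adhesion receptor and of a diacylglycerol kinase, were 2.03-fold and 1.64-fold higher. Cd2, the gene of a costimulatory adhesion receptor, fell to 61.9 to 63.6 FPKM in DN NK, against 190.1 to 209 FPKM in cNK. Nck1, an adaptor gene, Sla, which encodes a Src-like adaptor, and Syk, a kinase gene, fell by 0.996, 0.93 and 0.69 on the log2 scale. Zap70, the kinase gene whose product docks on phosphorylated CD3 and CD247 chains, had 46.9 ± 1.78 FPKM in DN NK and 47.1 ± 1.87 FPKM in cNK and did not pass (adjusted p = 0.395 by edgeR). Vav1 and Dgkz, with log2 fold changes of -0.024 and -0.081, did not pass either, but both were lower past the threshold with upper quartile scaling (adjusted p = 0.043 and 0.0182), and Dgkz also without a filter (0.0443). Lck, the kinase gene named here after its values were seen because its product binds CD4 and CD8, fell to 147 ± 6.76 FPKM in DN NK, against 209.7 ± 3.19 FPKM in cNK (adjusted p = 4.57e-05 by edgeR).

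Among other ITAM receptors and adaptors, genes known from NK cells were among those lower in DN NK. Of 8 listed genes 7 were tested, with 4 lower, 2 higher and 1 not past. Over all rows tested 30.9% were lower and 30.8% higher. The list median log2 fold change was -0.53 against -0.016 over all rows. Fcer1g, the gene of the FcR gamma chain that can stand in for CD247, fell to 276 ± 15.1 FPKM in DN NK, against 420.0 ± 17.4 FPKM in cNK (adjusted p = 3.38e-05 by edgeR). Tyrobp, which encodes the adaptor DAP12, fell to 686 ± 46.4 FPKM in DN NK, against 1035 ± 6.54 FPKM in cNK. The receptor genes Fcgr3 and Ncr1 fell by 1.08 and 0.88 on the log2 scale. Hcst, whose product DAP10 carries a different motif, had 78.9 ± 3.83 FPKM in DN NK and 86.2 ± 3.22 FPKM in cNK and did not pass, but was lower past the threshold with upper quartile scaling (adjusted p = 0.0439). The 2 higher genes, which passed the filter only through DN NK, were Cd79a and Cd79b, which encode the ITAM chains of the B cell receptor, at 11.8 ± 1.33 and 9.32 ± 2.21 FPKM in DN NK, against 0.292 ± 0.0328 and 0.634 ± 0.150 FPKM in cNK.

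Of 11 genes whose products bind or act with CD5 or CD6, 9 were tested, of which 6 were lower and 2 higher in DN NK, where 30.9% of all rows were lower and 30.8% higher. Most changes were small, with a list median of -0.18 against -0.016 over all rows. Cblb, a ubiquitin ligase gene, was 1.59-fold higher, and Sdcbp 1.11-fold higher. Ptpn6, Cbl, Ubash3a and Sh2d2a fell by 0.34, 0.34, 0.22 and 0.20 on the log2 scale. Sdcbp missed the threshold without DN NK replicate 1 (adjusted p = 0.0573), without a filter, with upper quartile scaling and with limma. Ubash3a missed it without DN NK replicate 1 or 3 or cNK replicate 2 or 3 (adjusted p 0.0507 to 0.0982), and Sh2d2a with median-ratio scaling and without any library but cNK replicate 2 (adjusted p 0.0505 to 0.12). Csnk2b, at 26.5 ± 2.04 FPKM in DN NK and 26.6 ± 0.794 FPKM in cNK, did not pass. Alcam, a CD6 ligand gene named after its values were seen, lay below the filter at 0.720 ± 0.0308 FPKM in DN NK and 0.364 ± 0.00568 FPKM in cNK. It was higher in the fit without a filter (edgeR, adjusted p = 0.000109). There 3 of the 11 genes were higher and 6 lower, where 15.3% of all rows were higher and 16.0% lower.

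Genes listed as T cell markers were measured in the same libraries. Several of the most abundant were high in cNK too, so their sum does not by itself mark T cells. Of 22 such genes 19 were tested, of which 14 were higher and 5 lower in DN NK. Over all rows tested 30.8% were higher and 30.9% lower. The list median log2 fold change was 0.59 against -0.016 over all rows tested. That median was the same with Tcrg-C2, which is at 0 in all cNK libraries, set to its lower bound. Of the 14 higher genes 4 (Tcrg-C1, Tcrg-C2, Bcl11b and Ctla4) passed the filter only through DN NK. The list summed to 1060 to 1114 FPKM in DN NK and to 833 to 839 FPKM in cNK, and 15 of its genes averaged at least 1 FPKM in cNK. The sums were led by the T cell receptor beta constant genes Trbc1, at 424 ± 11.99 FPKM in DN NK and 359 ± 8.52 FPKM in cNK, and Trbc2, at 174 ± 6.86 FPKM in DN NK and 131 ± 4.15 FPKM in cNK. The factor gene Tcf7 and the costimulatory receptor gene Cd28 were 1.62-fold and 1.54-fold higher, Runx3 was 1.18-fold lower, and the gamma constant gene Tcrg-C4 stood at 51.7 ± 3.30 FPKM in DN NK and 1.18 ± 0.130 FPKM in cNK. The alpha constant gene Trac had 6.93, 8.25 and 7.57 FPKM in DN NK, against 5.29, 4.30 and 6.12 FPKM in cNK, and the level of Cd3e was 0.0881 to 0.128 of that of Trac in DN NK and 0.00163 to 0.0108 of it in cNK. Ctla4, an inhibitory receptor gene, rose to 7.98 ± 0.758 FPKM in DN NK, against 0.449 ± 0.0753 FPKM in cNK, and the gamma constant gene Tcrg-C1 to 8.99 ± 1.31 FPKM in DN NK, against 0.118 ± 0.114 FPKM in cNK. Icos, a costimulatory receptor gene, rose to 9.93 ± 0.363 FPKM in DN NK, against 5.59 ± 0.490 FPKM in cNK, and Bcl11b, a T lineage factor gene, to 1.67 ± 0.240 FPKM in DN NK, against 0.615 ± 0.0374 FPKM in cNK. Trdc, the delta constant gene, and Lef1, a factor gene, were 3.22-fold and 1.81-fold lower. Themis and Foxp3, which mark developing and regulatory T cells, did not pass and reached no more than 0.0432 and 0.0886 FPKM in DN NK and 0.00903 and 0.0489 FPKM in cNK. Trac and the genes from Ctla4 on were chosen for mention after their values were seen. Ptcra and Tcrg-C2 were at 0 in all cNK libraries. The part of T cells in the levels of the CD3 genes, Cd4, Cd5 and Cd6 was not tested.

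Other cells of the spleen can carry some of these transcripts. Their markers were counted without a filter, where 15.3% of all rows were called higher in DN NK and 16.0% lower. Of 17 B cell markers 16 were higher and 1 lower in DN NK without a filter, and their summed level was 202 to 262 FPKM in DN NK and 125 to 131 FPKM in cNK, led in DN NK by Ighm and Cd72. B-1 cells also express Cd5. Of 11 markers of group 3 innate lymphoid cells (ILC3) and lymphoid tissue inducer cells, of which some express CD4 in mice, 10 were higher and 1 lower without a filter. Their sum of 258 to 299.8 FPKM in DN NK and 348 to 436 FPKM in cNK was led by Ncr1 and Il7r, of which Ncr1 is also an NK cell gene, while Il22, Il17f and Ccr6 were at 0 in all cNK libraries. Of 13 markers of dendritic cells, of which a subset carries CD8 alpha in mice, 6 were higher and 3 lower without a filter. Their sum, led by Itgax and Irf8, was 236 to 243 FPKM in DN NK and 322 to 337 FPKM in cNK. Members of that list did not share a direction or a level. Of its lower genes, Itgax fell to 124 ± 6.02 FPKM in DN NK, against 187.6 ± 6.93 FPKM in cNK. Irf8 fell to 60.4 ± 2.815 FPKM in DN NK, against 121 ± 14.75 FPKM in cNK. The factor genes Zbtb46 and Batf3 rose to 6.42 ± 0.423 and 6.72 ± 0.633 FPKM in DN NK, against 1.56 ± 0.435 and 0.277 ± 0.0996 FPKM in cNK. Xcr1 was also higher, at 0.0615 to 0.103 FPKM in DN NK and 0.00821 to 0.0255 FPKM in cNK (edgeR without a filter, adjusted p = 0.0214), and Flt3, at up to 0.0390 FPKM in DN NK and up to 0.0158 FPKM in cNK, did not pass. Zbtb46, Batf3, Xcr1 and Flt3 were chosen for mention after their values were seen.

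The sums of the remaining marker lists mostly follow 1 or 2 abundant genes, some of which NK cells also express, such as Klrg1, Ly6c2 and Klrb1c, so a sum's direction is not that of the list. Their counts of called genes likewise stand beside 15.3% of all rows higher and 16.0% lower without a filter. Markers of ILC2, led by Klrg1 and Gata3, summed to 42.7 to 46.7 FPKM in DN NK and 89.1 to 104 FPKM in cNK, with 2 of 8 higher and 1 lower without a filter and Il13 at 0 in all DN NK libraries. Monocyte and macrophage markers, led by Ly6c2 and Cd68, summed to 21.7 to 24.6 FPKM in DN NK and 41.99 to 47.2 FPKM in cNK, with 1 of 15 higher and 1 lower. Innate-like T cell markers, led by Klrb1c and Trdc, summed to 168 to 191 FPKM in DN NK and 348 to 379 FPKM in cNK, with 4 of 10 higher and 4 lower. The higher ones were Trac, Tcrg-C1, Zbtb16 and Slamf1. Zbtb16, a factor gene, stood at 5.81 ± 0.0637 FPKM in DN NK and 3.21 ± 0.276 FPKM in cNK. Slamf1 stood at 0.110 ± 0.00769 FPKM in DN NK and 0.0153 ± 0.00531 FPKM in cNK. Klrb1c and Trdc were among the lower ones, 2.07-fold and 3.22-fold lower in the fit with the filter. Erythroid and platelet markers, led by Hbb-bs and Hba-a2, summed to 42.7 to 61.2 FPKM in DN NK and 33.3 to 40.9 FPKM in cNK, with 2 of 10 higher and none lower without a filter. Hbb-bs, tested with the filter, missed the threshold without DN NK replicate 1 (adjusted p = 0.0513), and Hba-a2 without that library or any cNK library (0.054 to 0.105). Hba-a2 also missed it with upper quartile scaling (0.0707) and without a filter (0.0715), so it is not among the 2 counted. Ppbp was at 0 in DN NK, and Klf1 and Pf4 were at 0 in cNK. The 5 neutrophil markers found in the table, led by S100a9 and S100a8, summed to at most 0.617 FPKM in DN NK and were at 0 in all cNK libraries, and S100a9 alone passed without a filter (adjusted p = 0.0441), but not when any library was left out (0.0638 to 0.154) or with the replicate block (0.178). The part of these cells in the results was not tested.

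Genes beside the members were called at shares near those of all rows past the filter. Within 50 kb of a member lay 21 other named rows that averaged at least 1 FPKM in a group, of which 8 were higher in DN NK, 7 lower and 6 not past, where 30.8% of all rows past the filter were higher and 30.9% lower. Among them Slc15a3, called higher, and AC061963.4, not past, lay below the filter and come from the fit without it. In that fit 15.3% of all rows were higher and 16.0% lower. Beside the CD3 cluster Ube4a, 3.97 kb from Cd3g, fell by 0.55 on the log2 scale, and Atp5l by 0.18, while Mpzl3, 45.6 kb from Cd3e, rose 1.12 on that scale. Mpzl3 passed the filter only through its DN NK values. Beside Cd4 the checkpoint receptor gene Lag3, 16.1 kb away, rose to 18.5 ± 1.47 FPKM in DN NK, against 2.05 ± 0.462 FPKM in cNK (log2 fold change 3.23, SE 0.15, adjusted p = 2.30e-06 by edgeR). The other neighbours of Cd4 at this level (Ptms, Usp5, Mlf2 and the cell cycle gene Cdca3) all fell, though Ptms missed the threshold without DN NK replicate 1 or 3 (adjusted p = 0.0597 and 0.0557). Gpr162, the nearest neighbour of Cd4 at 0.709 kb and below 1 FPKM, was higher at 0.262 ± 0.0349 FPKM in DN NK and listed at 0 in all cNK libraries (edgeR without a filter, adjusted p = 3.47e-06); it was named after its values were seen. Vps37c, 3.72 kb from Cd5, rose 0.43 on the log2 scale, and Slc15a3 and Tmem109 beside Cd6 lay at 1.57 and -0.87. At the Cd247 locus Pou2f1 rose 0.50 where Cd247 fell. Rmnd5a beside Cd8a and Creg1 and Gm16565 beside Cd247 lay at 0.22, 0.25 and 0.33, and each missed the threshold without a filter, with upper quartile scaling and when single libraries were left out. These were DN NK replicate 1 or 2 for Rmnd5a (adjusted p = 0.067 and 0.0686), DN NK replicate 1 or cNK replicate 2 for Creg1 (0.0853 and 0.079), and DN NK replicate 2 or cNK replicate 2 or 3 for Gm16565 (0.0564 to 0.117). Krcc1 beside Cd8b1 did not pass and lay at -0.87, with -1.90 without DN NK replicate 3 and -0.07 without cNK replicate 1.

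**Figure D4:**
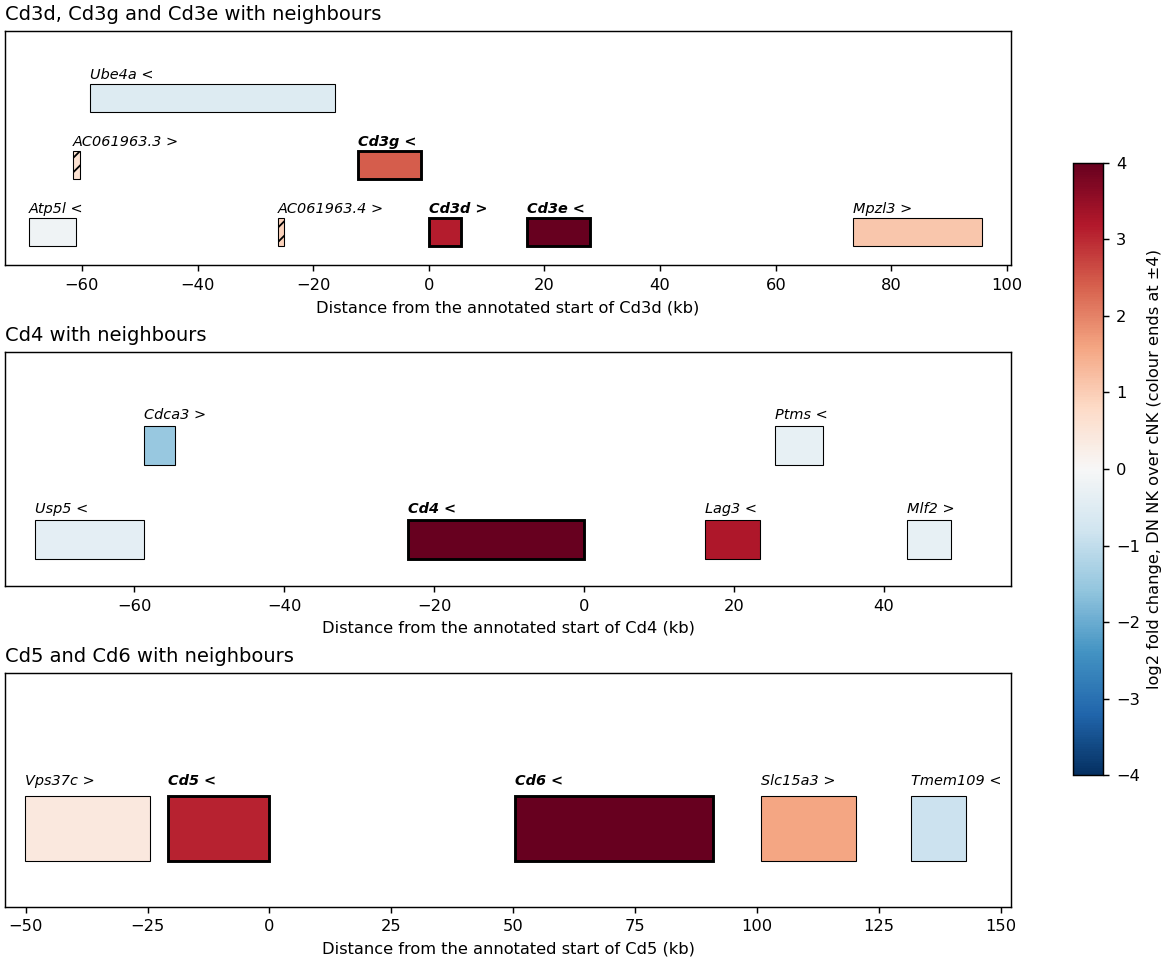
Gene spans around Cd3d, Cd4 and Cd5 by distance in kb from the annotated start of that gene, for the CD3 genes, Cd4, Cd5 and Cd6 (thick outline) and neighbours averaging at least 1 FPKM in a group; colour is the log2 fold change DN NK over cNK, ending at its darkest beyond the scale, hatching marks rows that did not pass, and > or < after a name gives the strand. Cd3d, Cd3g and Cd3e are higher while Ube4a and Atp5l are lower, and Lag3 at 3.23 is the only neighbour of Cd4 drawn that is higher; Gpr162, also higher, lies below that level.

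The tested genes whose profile came nearest to that of a member were found by the mean absolute difference of log2(FPKM + 0.1), each gene centred on its own mean, over the 6 libraries. For Cd3e they were Prr33, Lag3 and Acpp, with differences of 0.0881, 0.106 and 0.107. For Cd247 they were Neat1, Zfp113 and Cdca2, at 0.0293, 0.0342 and 0.0344, and for Cd5 they were Dusp4, Jmy and Prrt1, at 0.0510, 0.0670 and 0.0746. With 2 groups of 3 libraries such likeness mostly reflects a similar difference between the groups on that scale. For Cd247 an example is Neat1, at 4.81 ± 0.253 FPKM in DN NK and 10.7 ± 0.176 FPKM in cNK. Adding 0.1 shrinks low genes by construction, so nearness to Cd3e or Cd5 is not a like fold change. By edgeR the log2 fold changes were 3.441, 3.234 and 3.255 for Prr33, Lag3 and Acpp, against 5.145 for Cd3e without a filter. Those of Dusp4, Jmy and Prrt1 were 2.085, 2.124 and 2.212, against 3.083 for Cd5 without a filter.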

How the data were processed

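RNA of splenic NK cells was sequenced as poly(A) libraries with paired reads of 150 bp, per the labels' protocols. The kit named there does not mark strand. HISAT, StringTie and edgeR, and GRCm38 (mm10) as the build, are listed in the submitters' processing notes without a version. The deposited table, per the file headers, holds FPKM and count values per gene and library. The deposited counts are treated as estimated counts, already whole: in rows with 1 transcript, 85.4 to 87.1% of the values no larger than 30 are FPKM times length times a constant, rounded up, so read pairs given in the text are approximate.

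Groups follow the sample titles. Rows reaching 1 FPKM in 3 or more libraries (11690 of 27763, with 99.26% of the counts) were tested with edgeR 4.0.16 in R 4.3.3 (TMM, robust quasi-likelihood, 2-sided, group as the only term), at an adjusted p of 0.05; genes below the filter come from the same test on all rows. The standard error is the log2 fold change divided by the square root of F. The edgeR steps were also run on simulated counts of rows past the filter, few of which were changed. That setting differs from these data, where 61.7% of the rows tested were called, and it holds no genes below the filter. Alternatives were other filters and scalings, DESeq2 1.42.0, limma 3.58.1 on log2(FPKM + 1) and log2(FPKM + 0.1), counts divided by 3.73, a replicate block and leaving out each library. No molecular identifier is named, so intervals cover counting error alone.

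The members and lists were chosen with earlier results of these data known. Named genes are all members; of 3 related lists, the 4 largest changes in each direction and the 3 most abundant genes not past; of T cell identity the 6, and of other marker lists the 2, most abundant in DN NK; neighbours within 50 kb; and the 3 nearest profiles. Some genes of these lists, among them a gene that this rule takes, are not reported here.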

Additional observations from a re-analysis of the deposited data

How the results depend on the processing

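Cd3d, Cd3e, Cd3g, Cd247, Cd4 and Cd5 kept their direction and passed under every alternative that gave a value. Their log2 fold changes ranged over 2.84 to 3.20 for Cd3d, 0.85 to 6.39 for Cd3e, 2.06 to 2.44 for Cd3g, -1.22 to -1.12 for Cd247, 2.15 to 9.45 for Cd4 and 0.59 to 3.35 for Cd5, with the lowest values of Cd3e, Cd4 and Cd5 on the log2(FPKM + 1) scale, which by construction shrinks low genes. With a mean of at least 5 FPKM Cd4 is not tested, 4614 rows were called (2278 higher and 2336 lower, against 7215, 3602 and 3613), and 1 ITAM gene was higher. The CD5 and CD6 partners counted 1 higher gene with upper quartile scaling and on both limma scales, and 1 to 2 when a library was left out. Without a library in turn, Cd8a ranged over 2.81 to 4.34, and Cd8b1, which never passed, over -5.57 to 1.94 with either sign.

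The replicate numbers share only a number: deviations of same-numbered libraries correlated at 0.046, 0.0362 and 0.162. With the replicate block Cd6 lay at 5.23 (adjusted p = 0.0501), and no other of the 9 genes crossed the threshold. Zap70, Csnk2b and Gm37856, not past, changed sign at sizes near 0. Zap70 was at -0.01291 without a filter, -0.03373 with upper quartile scaling, and -0.008682 and -0.008847 with limma. Csnk2b was at -0.007213 without a filter, -0.0282 with upper quartile scaling, -0.005823 and -0.006096 with limma, and -0.01257 to 0.08848 without a library in turn. Gm37856 at the Cd247 locus was at -0.3237 to 0.0463 without a library in turn. The cause was not tested. The 5 genes below 1 FPKM, at 3 to 12 read pairs in cNK, are limited by depth.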
